A study of Mus musculus with 24 samples.

Results

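Brain endothelial cells are described here from 514 single nuclei, out of 204925 nuclei kept from 24 libraries of mouse brain. Nuclei were kept where the number of genes seen lay above 500 and below 7000 and mitochondrial genes gave under 20% of the UMIs (unique molecular identifiers, each standing for 1 counted RNA molecule). A nucleus was taken as endothelial when Flt1, Cldn5, Ptprb, Adgrl4 and Cyyr1 together gave at least 6 UMIs from at least 3 of the genes, when Vtn, Pdgfrb and Atp13a5 of mural cells together gave at most 2 UMIs, when Mog, Mag and Mobp of oligodendrocytes gave at most 1, and when Csf1r, Rbfox3 and Aqp4 of microglia, neurons and astrocytes were at 0. The limits on the endothelial genes were passed by 825 nuclei, of which 311 were removed by the markers of other cell types. Of the members, 419 came from deep brain, among 124958 kept nuclei, and 95 from cortex, among 79967. All 5 endothelial genes were seen in 279 members, 4 in 167 and 3 in 68. The members were thus chosen by measured UMIs of these genes, and the levels of the rule's genes are given only as a description: the 5 genes summed to 6 UMIs in the lowest member, a median of 24 in deep brain and 28 in cortex, and at most 593. Just inside the limit, 11 members had 6 or 7 UMIs, and 9 nuclei that met all other limits lay just outside with 4 or 5. No cell barcode was shared between libraries among the 514 members.

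Brain endothelial cells line the vessels of the central nervous system and form the blood-brain barrier. Tight junctions seal the space between neighbouring cells, transporters carry glucose, lipids and amino acids inwards and drugs outwards, and vesicular transport across the cell is held low. Along the vascular tree the cells differ gradually, with arterial, capillary and venous expression programmes. Endothelial cells also secrete the growth factor PDGF-B, which stays near the vessel through its retention motif and recruits pericytes, the mural cells of capillaries, through the receptor PDGFRB on their surface. Carriers of PDGFB mutations can develop primary familial brain calcification, in which mineral deposits form along vessels of the basal ganglia and other deep regions.

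The study compared Pdgfb ret/ret mice, called mutants, with Pdgfb ret/wt mice, called controls, all of the strain B6.Pdgfb tm3Cbet. The ret allele lacks the retention motif in every cell and at all ages, and the controls carry 1 copy of it, so no group here is wild type. From each of 6 mutant and 6 control mice, nuclei were isolated from deep brain (pallidum, thalamus and hypothalamus, midbrain and pons, where calcifications form) and from cortex (cerebral cortex with hippocampus, which stays free of them). The animals numbered 1 to 3 had reached 5 months plus 0 to 18 days, those numbered 4 to 6 had reached 4 months plus 7 to 24 days, and all but control 6 were female. Xist, the RNA of the inactive X chromosome, matched the labelled sex in all 24 libraries. As the allele differs by a deleted motif, the level of Pdgfb does not check the genotype. Whole libraries held 23625232 to 96459036 UMIs, and their kept nuclei had median UMI counts of 3547 to 7314.5 in deep brain and 804 to 8054 in cortex. Endothelial nuclei were shallower than that in deep brain, with a median of 2027 UMIs and 1323 genes, and stood at 2528 UMIs in cortex.

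Genes outside the rule carried the endothelial label. In deep brain, Pecam1 (an adhesion molecule of endothelial junctions) reached 828 ± 212 CPM (UMIs per 1000000 UMIs of the summed endothelial nuclei, mean ± SD, n = 12 libraries) against 2.58 in all other kept nuclei, and Cdh5 (VE-cadherin) reached 419.7 ± 109 against 1.65. Slco1a4, an organic anion transporter of the barrier, stood at 4774 ± 511 CPM against 4.93 in other nuclei. Among all genes with at least 200 CPM in endothelial nuclei, ranked by their ratio to other nuclei, those outside the rule that led were Slco1a4, Ly6c1, Vwf, Abcb1a, Mecom and Eng. The defining mural gene Abcc9 lay at 13.8 CPM, against 1922 in mural nuclei, and Kcnj8 at 1.72 against 577. Both genes also served to choose the mural nuclei. Rgs5, which mural cells also express strongly, was present at 487 CPM against 2527 in mural nuclei. Summed, the 12 mural markers had medians of 2385 CPM in mutant and 2855 CPM in control endothelial nuclei of deep brain. Over all kept nuclei the medians of that sum were 331 and 348 CPM. Of its UMIs in endothelial nuclei, Rgs5 gave 141 of 1575 in mutants and 425 of 1485 in controls. The mural gene Notch3 stood at 12.1 CPM. The other members behind the sum are not split here, so its height does not by itself show mural RNA. T cell markers summed to a median of 0 CPM in both groups, whereas RNA of abundant brain cells was present, as Snap25 shows in the map of classes. The 10 markers of microglia and macrophages summed to medians of 145 CPM in mutant and 126 CPM in control endothelial nuclei. Over all kept nuclei their medians were 193 and 151 CPM. The 10 fibroblast markers summed to a median of 154 CPM in mutant and 72.5 CPM in control endothelial nuclei, with overlap. Over all kept nuclei of deep brain that sum had medians of 74.7 and 67.3 CPM. These contrasts carry no test, since the rule that chose the nuclei fixes them in part.

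**Figure D1:**
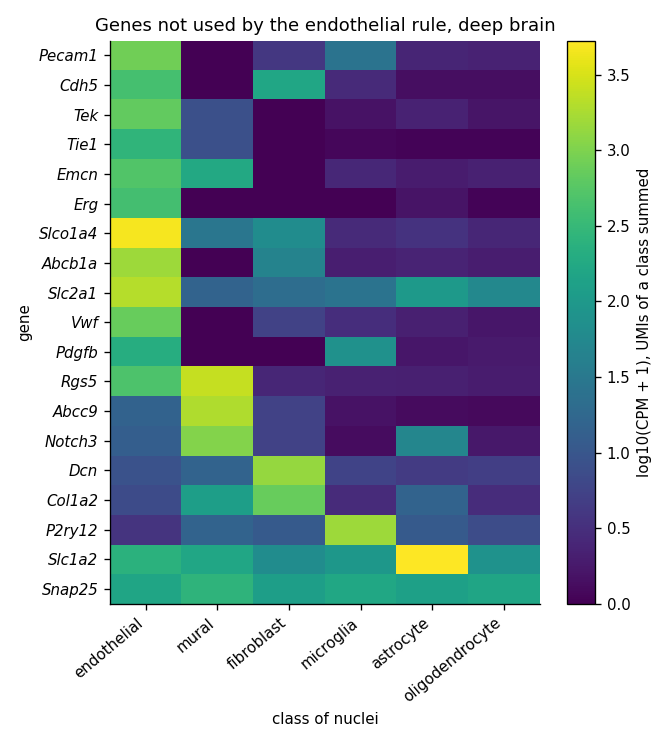
Heat map of log10(CPM + 1) for 19 genes (rows) that the endothelial rule did not use, in deep brain nuclei of 6 classes (columns), the UMIs of each class being summed over 12 libraries. The 10 genes from Pecam1 to Vwf are brightest in the endothelial column, Abcc9 and Notch3 in the mural column, and Snap25 has a similar shade in every class.

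The share of endothelial nuclei did not differ detectably between genotypes. In deep brain, 16 to 50 nuclei per mutant library and 20 to 56 per control library were endothelial. The shares ran from 0.146% to 0.451% of kept nuclei in mutants (mean 0.323 ± 0.113% SD, n = 6) and from 0.213% to 0.513% in controls (0.342 ± 0.107%, n = 6), with a difference of -0.0188 percentage points and overlapping groups (exact permutation test, two-sided, p = 0.771). In cortex the shares were lower and more variable, at 0.101 ± 0.0983% in mutants against 0.137 ± 0.0770% in controls (p = 0.476 by the exact permutation test). Cortical libraries gave 0 to 24 endothelial nuclei, only 6 of 12 gave at least 5, and the cortical library of mutant 3 gave 0 of 4467, which allows a share of up to 0.0672% by a limit of 3 counts, or of 0.0825% by the exact Clopper-Pearson interval in the plot of shares. Cortical libraries also differed in depth, and shallow nuclei reach the 6 UMIs of the rule less easily. Kept nuclei had a median of 813 UMIs in mutant 3 and of 8054 UMIs in mutant 6, which gave 0.260%. Control 1 nevertheless gave 0.199% at a median of 1160.5 UMIs. The part of depth in the cortical shares was not tested. The shares count recovered nuclei and are no measure of vessel density.

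**Figure D2:**
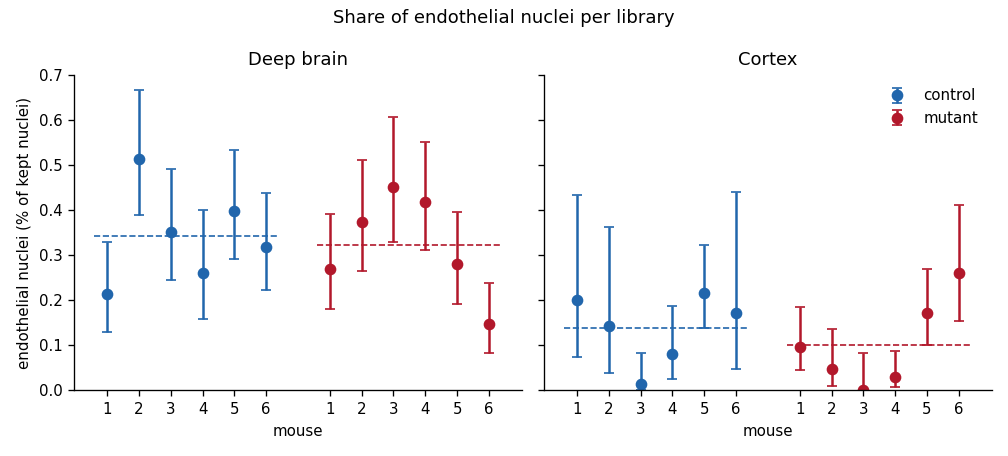
Share of kept nuclei that were endothelial (%, vertical axis) in each of 24 libraries by mouse, with exact 95% Clopper-Pearson intervals that cover counting error only; dashed lines are group means. Control and mutant points overlap in both regions, and the cortical shares lie below 0.3%.

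Mural nuclei, counted by a rule of the same form with 5 mural genes, numbered 3.00 ± 2.28 per mutant and 13.5 ± 2.35 per control deep brain library (SD, n = 6 each). The groups did not overlap (0 to 6 against 10 to 16; exact permutation test, p = 0.00216, the smallest that the design allows). Mural nuclei were too few in cortex to compare, with 14 of 16 in control 5. The endothelial nuclei themselves had median depths of 2142 ± 225 UMIs in mutants and 1899.6 ± 167 in controls of deep brain (exact permutation test, p = 0.0541), and of 3354 ± 1562 (n = 5) and 2885 ± 955 (n = 6) in cortex (p = 0.597, exact permutation test). In deep brain the mutant nuclei were thus deeper by 243 UMIs on average, and the part of depth in the gene results below was not tested.

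Between genotypes, deep brain endothelial nuclei differed in 38 genes. Ccn2 and Edn1, a matrix protein and a vasoconstrictor, had the largest fold changes, 4 genes of antigen presentation and the venous gene Vwf rose as well, and Lmntd1, Kitl and Tfrc were among those that fell. With 1 library left out in turn, Lmntd1 and Kitl were called in all 12 fits and Tfrc in 3. The lists of barrier transporters and of junction genes gave 1 call each. Levels are given below as the lowest, the median and the highest CPM of the 6 libraries of a group. The counts of endothelial nuclei were summed per library and tested with edgeR's quasi-likelihood test, with p-values adjusted by Benjamini-Hochberg over all 1733 genes fitted, of which 1728 lie outside the rule and are counted here. At an adjusted p under 0.05, 38 genes were called, 2.2% of those tested; 26 rose in mutants (1.5%) and 12 fell (0.694%). The 2 groups of libraries did not overlap for 22 genes that were higher (1.27%) and 9 that were lower (0.521%) in mutants. Pdgfb itself (chr15:79995874-80014977, minus strand, GRCm38) stood at 113, 208 and 290.2 CPM in mutants, from 126 UMIs, and at 139, 233 and 304 CPM in controls, from 113 UMIs, with overlapping groups (log2 fold change -0.22 ± 0.24 SE, adjusted p = 0.773). All 38 genes kept their direction in every alternative in which they could be tested, and 17 of them were called in all 21, among them Ccn2, Edn1, Lpar6, Thsd7a, Nckap5, Vwf, Crim1, Clec14a, H2-Q4, H2-D1, H2-K1, B2m and Myof, which rose, and Lmntd1, Rgs5 and Snap25, which fell.

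**Figure D3:**
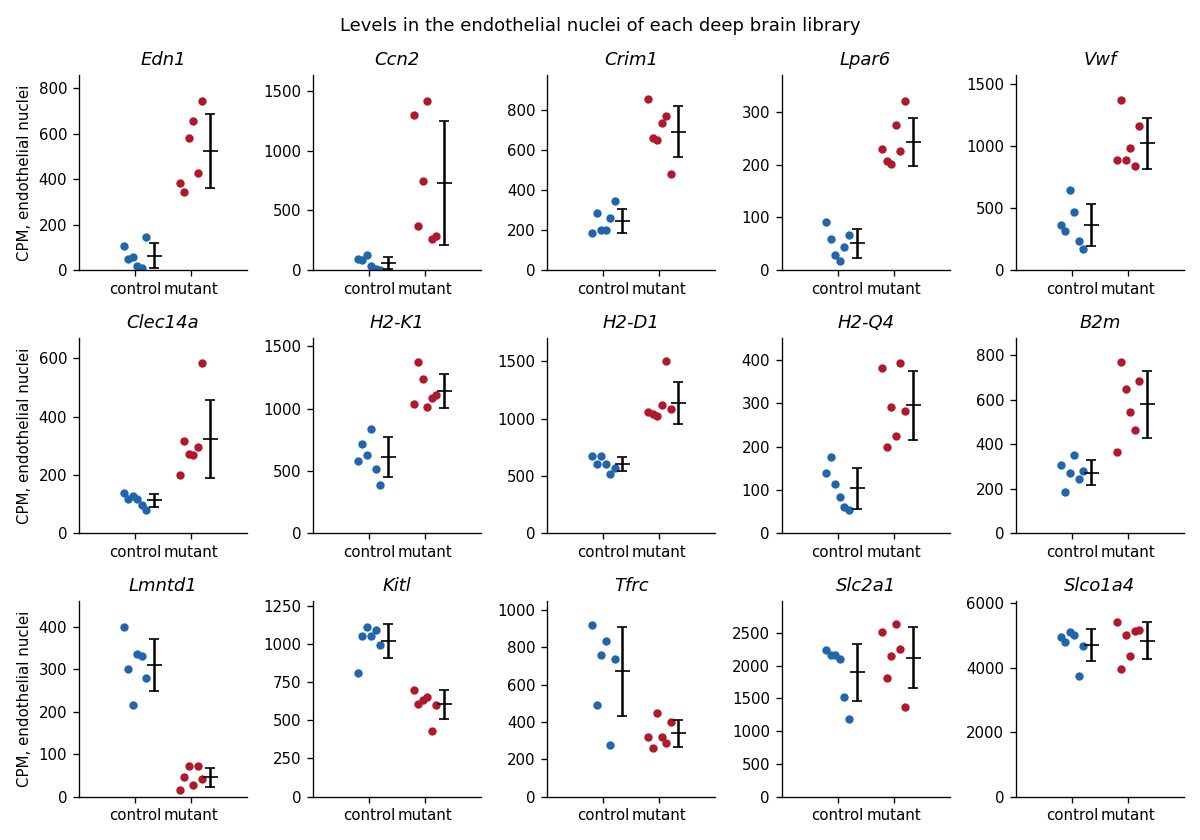
CPM of 15 genes in the endothelial nuclei of each deep brain library (points; 6 control in blue, 6 mutant in red; vertical axes start at 0), with the group mean ± SD in black. For the genes from Edn1 to B2m the mutants lie above all controls, for Lmntd1 and Kitl they lie below, and the groups overlap for Tfrc, Slc2a1 and Slco1a4.

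Edn1 and Ccn2 led the genes that rose. Edn1 (chr13:42301476-42307990, plus strand), which encodes the vasoconstrictor endothelin-1, stood at 343, 505 and 745 CPM in mutants, from 351 UMIs, and at 8.70, 53.7 and 146 CPM in controls, from 30 UMIs. All 6 mutants lay above all controls, and Edn1 rose 8.31-fold (log2 fold change 3.05 ± 0.37 SE, adjusted p = 4.62e-05). Ccn2 (chr10:24595442-24598683, plus strand), the matricellular connective tissue growth factor, stood at 262, 556 and 1415 CPM in mutants, from 539 UMIs, and at 0, 58.5 and 129 CPM in controls, from 28 UMIs, with 1 control library at 0. It rose 12.8-fold without overlap (log2 fold change 3.68 ± 0.54 SE, adjusted p = 0.000312). These UMIs were unevenly spread over nuclei: in mutants 62 of 208 nuclei held Ccn2, and the 5 richest nuclei gave 55.5% of its UMIs, against 31.3% for Edn1. After thinning each nucleus to 1000 UMIs, which left out 10 mutant and 11 control nuclei that were shallower, Ccn2 was seen in 22.2% of mutant and 4.00% of control nuclei (29.8% and 7.11% before thinning), against 0.204% and 0.271% of the oligodendrocyte nuclei, a type that should lack it. The corresponding shares for Edn1 were 21.7% of mutant and 4.50% of control nuclei (36.1% and 9.48% before thinning), against 0.0562% and 0.0199% of the oligodendrocyte nuclei. Median depths before thinning were 2248.5 and 1926 UMIs in mutant and control endothelial nuclei and 2757 and 2630 in oligodendrocyte nuclei. Of the 44 thinned mutant nuclei with Ccn2, 47.7% also held Edn1, against 14.3% of the other 154. For Vwf in place of Edn1 the shares were 47.7% and 44.2%. These nuclei were pooled over the mutant mice, and the shares were not tested.

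Crim1 (chr17:78200248-78376592, plus strand), a transmembrane protein that binds bone morphogenetic proteins, stood at 483, 698 and 855 CPM in mutants, from 459 UMIs, and at 184, 231 and 344 CPM in controls, from 128 UMIs, and rose in every mutant above every control (log2 fold change 1.45 ± 0.20 SE, adjusted p = 0.000149). Lpar6 (chr14:73237895-73243294, plus strand), a receptor for lysophosphatidic acid, stood at 202, 228 and 322 CPM in mutants, from 156 UMIs, and at 16.7, 51.0 and 92.0 CPM in controls, from 26 UMIs (log2 fold change 2.16 ± 0.28 SE, adjusted p = 6.78e-05). For both genes all 6 mutants lay above all controls. Clec14a, an endothelial lectin of the cell surface, was measured at 199, 285 and 584 CPM in mutants, from 196 UMIs, and at 79.4, 117 and 138 CPM in controls, from 56 UMIs (log2 fold change 1.44 ± 0.25 SE, adjusted p = 0.00245), and Thsd7a, a membrane protein with thrombospondin repeats, at 199, 252 and 302 CPM in mutants, from 153 UMIs, and at 0, 90.8 and 117 CPM in controls, from 41 UMIs (log2 fold change 1.55 ± 0.32 SE, adjusted p = 0.00953). For Clec14a and Thsd7a the groups did not overlap either, and 1 control library held no Thsd7a UMI. Nckap5, also among the 10 largest rises, stood at 259.7, 445 and 599 CPM in mutants, from 289 UMIs, and at 33.4, 129 and 272 CPM in controls, from 75 UMIs, with 5 mutants above all controls (log2 fold change 1.51 ± 0.32 SE, adjusted p = 0.0122).

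Bmp6, a bone morphogenetic protein ligand that endothelial cells secrete, was chosen after its values were seen and had too few counts to enter the deep brain test. Its levels were 117, 212 and 404 CPM in mutants (170 UMIs in all) and 0, 18.5 and 61.3 CPM in controls (9 UMIs), without overlap. In mutants the UMIs came from 44 nuclei, and in controls from 5. A fit of both regions summed per mouse, an alternative with more UMIs, called 88 of 3061 genes (2.87%), of which 63 rose (2.06%) and 25 fell (0.817%), and 33 of the 38 deep brain calls were among them, whereas those of Magi1, Fmo2, Ctla2a and Synm were lost. It holds the deep brain counts of the same mice, so its calls are no independent evidence for those in deep brain.

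Of the genes of antigen presentation, 4 rose. MHC class I molecules present peptides from inside the cell to CD8 T cells, with B2m as their invariant light chain and the Tap transporters as the peptide supply. Of 34 genes fixed as interferon and MHC class I genes, 11 were tested, and 4 rose against 1.5% of all genes: H2-K1, H2-D1, H2-Q4 and B2m. All 11 were higher in mutants, with a median log2 fold change of 0.69 against -0.0036 over all genes tested. Since sparse members can enter the test through the group where they are high, this one-sided count is no separate support. H2-K1 (chr17:33996017-34000347, minus strand) stood at 1016, 1094 and 1374 CPM in mutants, from 755 UMIs, and at 384, 606 and 836 CPM in controls, from 306 UMIs (log2 fold change 0.88 ± 0.18 SE, adjusted p = 0.00932). H2-D1 (chr17:35262730-35267499, plus strand) stood at 1020.3, 1070.4 and 1498 CPM in mutants, from 735 UMIs, and at 514, 602 and 675 CPM in controls, from 301 UMIs (log2 fold change 0.88 ± 0.16 SE, adjusted p = 0.00296). Every mutant library exceeded every control library in both. H2-Q4 (chr17:35379617-35385290, plus strand), of the Qa region, stood at 199, 286 and 392 CPM in mutants, from 183 UMIs, and at 52.9, 99.1 and 176 CPM in controls, from 54 UMIs (log2 fold change 1.41 ± 0.28 SE, adjusted p = 0.00681), and B2m (chr2:122147686-122153083, plus strand) at 367, 596 and 768 CPM in mutants, from 388 UMIs, and at 184, 275 and 351 CPM in controls, from 131 UMIs (log2 fold change 1.09 ± 0.21 SE, adjusted p = 0.00681). Neither of these overlapped between groups. Class I genes are near-identical in parts, so that the split of reads among H2-K1, H2-D1 and the H2-Q genes is uncertain. The members that moved are class I heavy and light chains; Nlrc5, the transactivator of class I genes, had too few counts to be tested and stood at 20.1, 44.5 and 84.2 CPM in mutants, from 35 UMIs, and at 13.2, 29.8 and 100.2 CPM in controls, from 18 UMIs. H2-Q6 and H2-Q7, chosen after their values were seen, were too low for the deep brain test, with 115 UMIs in mutants and 26 in controls for H2-Q6 and 119 and 37 for H2-Q7. Both were called with both regions summed, which is no independent evidence. Bst2, an interferon-induced membrane protein, was called there as well (log2 fold change 1.35 ± 0.29 SE, adjusted p = 0.00906).

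Values of the same 4 genes were also higher in the other nuclei of mutant deep brain. All other kept nuclei gave log2 fold changes of 1.13 ± 0.15 SE, adjusted p = 0.00626 for H2-Q4 and 0.73 ± 0.14 SE, adjusted p = 0.0253 for H2-K1, which passed, and 0.44 ± 0.12 SE, adjusted p = 0.0844 for B2m and 0.41 ± 0.13 SE, adjusted p = 0.146 for H2-D1, which did not. Tested directly, the difference between the change in endothelial nuclei and that in other nuclei did not pass for H2-K1 (difference of log2 fold changes 0.18 ± 0.19 SE, adjusted p = 0.808), H2-Q4 (difference of log2 fold changes 0.35 ± 0.35 SE, adjusted p = 0.801), H2-D1 (difference of log2 fold changes 0.49 ± 0.19 SE, adjusted p = 0.249) or B2m (difference of log2 fold changes 0.64 ± 0.23 SE, adjusted p = 0.184). Microglial markers, whose cells carry class I, summed to 127 to 214 CPM in mutant and 85.9 to 167 CPM in control endothelial nuclei, with Cd163 and F13a1 at 0 in both groups. Over all kept nuclei of deep brain that sum had medians of 193 CPM in mutants and 151 CPM in controls. The part of microglial RNA in the result was not tested.

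Because these 4 genes rose together, their upstream sequences are shown. Each is the 250 bases before the RefSeq start of the gene on GRCm38.p6, read 5′ to 3′ on the gene's strand: chr17:34000348-34000597 on the minus strand for H2-K1, and on the plus strand chr17:35262844-35263093 for H2-D1, chr17:35379367-35379616 for H2-Q4 and chr2:122147437-122147686 for B2m. The GENCODE start of H2-D1 lies upstream of its RefSeq start, so its window lies within the gene as given above. For H2-K1 the RefSeq table lists 2 windows, and the first of them is shown. Capitals mark matches to the interferon-stimulated element, searched on both strands as GAANNGAAA or as 2 copies of GAAA set 2 bases apart, and to the NF-kappaB consensus.
H2-K1: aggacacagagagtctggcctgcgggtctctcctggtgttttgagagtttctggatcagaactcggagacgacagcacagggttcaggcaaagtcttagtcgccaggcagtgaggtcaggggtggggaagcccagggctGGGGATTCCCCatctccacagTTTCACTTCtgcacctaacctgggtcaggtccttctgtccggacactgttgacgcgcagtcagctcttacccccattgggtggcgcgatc
H2-D1: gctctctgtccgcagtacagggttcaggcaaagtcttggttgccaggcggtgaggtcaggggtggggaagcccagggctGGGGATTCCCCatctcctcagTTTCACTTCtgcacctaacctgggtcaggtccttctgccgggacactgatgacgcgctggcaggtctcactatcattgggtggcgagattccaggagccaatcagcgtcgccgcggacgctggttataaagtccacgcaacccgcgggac
H2-Q4: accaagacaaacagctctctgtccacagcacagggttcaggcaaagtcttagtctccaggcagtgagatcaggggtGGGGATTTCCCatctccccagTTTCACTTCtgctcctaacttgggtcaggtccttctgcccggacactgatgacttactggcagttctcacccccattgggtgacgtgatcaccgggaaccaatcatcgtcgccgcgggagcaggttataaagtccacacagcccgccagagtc
B2m: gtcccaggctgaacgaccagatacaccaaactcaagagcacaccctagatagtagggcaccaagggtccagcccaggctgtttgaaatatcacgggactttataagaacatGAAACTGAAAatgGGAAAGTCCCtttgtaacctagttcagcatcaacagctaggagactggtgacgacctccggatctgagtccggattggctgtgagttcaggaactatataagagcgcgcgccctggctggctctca
In H2-K1, H2-D1 and H2-Q4 the element GAANNGAAA matched on the minus strand, starting 90, 150 and 153 bases before the start, and in B2m the 2 copies of GAAA matched on the plus strand 139 bases before it. An NF-kappaB match lay just upstream of the element in the 3 heavy chains and just downstream of it in B2m. Of 32851 windows of the same length, 6.31% held GAANNGAAA, 2.98% held the 2 copies of GAAA, and 7.25% held the NF-kappaB consensus. The 2 forms can overlap, and 8.82% of windows held either. The windows of the 3 heavy chains share long stretches of letters, so their matches are not separate events to set against these shares. These matches describe letters and not occupied sites.

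Among genes that mark the zones of the vascular tree, 2 venous genes and 1 arterial gene rose, and 1 capillary gene fell. Of 20 venous genes 10 were tested and 2 rose, Vwf among them, with 7 of 10 higher and a median log2 fold change of 0.23. Over all genes tested 1.5% rose and 0.694% fell, and the median was -0.0036, against which the counts for arteries and capillaries are read as well. Vwf (chr6:125546774-125686679, plus strand), the von Willebrand factor of haemostasis, stood at 844, 939 and 1374 CPM in mutants, from 665 UMIs, and at 172, 343 and 644 CPM in controls, from 175 UMIs, without overlap (log2 fold change 1.47 ± 0.24 SE, adjusted p = 0.00157). Thinned to 1000 UMIs, Vwf was seen in 44.9% of mutant and 22.5% of control nuclei (60.1% and 31.8% before thinning), against 0.0703% and 0.0861% of the oligodendrocyte nuclei. Among 21 arterial genes 6 were tested and Edn1 rose. All 6 were higher, with a median of 0.68. Sparse members can enter the test through the group where they are high, so this one-sided count is no separate support. Bmx, an arterial tyrosine kinase, stood at 83.2, 260.3 and 289 CPM in mutants, from 147 UMIs, and at 0, 37.4 and 229 CPM in controls, from 31 UMIs, and did not pass (log2 fold change 1.81 ± 0.49 SE, adjusted p = 0.0525), and Efnb2 had too few counts to be tested. With both regions summed, Bmx (log2 fold change 1.91 ± 0.34 SE, adjusted p = 0.00257), the Notch ligand Jag1 (log2 fold change 1.27 ± 0.33 SE, adjusted p = 0.0374) and the venous genes Vcam1 (log2 fold change 1.52 ± 0.31 SE, adjusted p = 0.00668), Nrp2 (log2 fold change 1.02 ± 0.23 SE, adjusted p = 0.0128) and Adgrg6 (log2 fold change 1.41 ± 0.38 SE, adjusted p = 0.0431) passed in addition. That fit holds the deep brain counts again, and sparse genes can enter it through the mutants, so these calls are no independent evidence. Of 14 capillary genes 13 were tested, none rose and Tfrc fell, with 6 of 13 higher and a median of -0.12, and with both regions summed Spock2, a matrix proteoglycan, fell as well (log2 fold change -0.68 ± 0.17 SE, adjusted p = 0.0274). The Tfrc call held in 3 of 12 fits with 1 library left out. Slc38a5, a venous and capillary amino acid transporter, was too low to test and stood at 78.6, 121 and 362 CPM in mutants, from 86 UMIs, and at 92.6, 105 and 230.1 CPM in controls, from 60 UMIs.

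Barrier transport genes gave 1 call. Of 26 transporters 24 were tested, none rose and 1 fell, with a median log2 fold change of -0.11, against 0.694% that fell and a median of -0.0036 over all genes tested. Slco1a4 stood at 3949.6, 5069 and 5423 CPM in mutants, from 3099 UMIs, and at 3743, 4876 and 5096 CPM in controls, from 2335 UMIs, with overlap (log2 fold change 0.01 ± 0.13 SE, adjusted p = 0.988). Slc2a1, the glucose transporter GLUT1, stood at 1368, 2203 and 2638 CPM in mutants, from 1455 UMIs, and at 1177, 2134 and 2239 CPM in controls, from 946 UMIs (log2 fold change 0.15 ± 0.18 SE, adjusted p = 0.796). The drug exporter Abcb1a stood at 1301, 1655 and 1808 CPM in mutants, from 1058 UMIs, and at 1018, 1395 and 1906 CPM in controls, from 708 UMIs (log2 fold change 0.13 ± 0.16 SE, adjusted p = 0.792). None of the 3 passed, and all 3 overlapped between groups. Mfsd2a, the lysolipid transporter that holds transcytosis low, was measured at 59.5, 143 and 307 CPM in mutants, from 113 UMIs, and at 60.9, 232 and 301 CPM in controls, from 102 UMIs (log2 fold change -0.32 ± 0.33 SE, adjusted p = 0.755). The lactate transporter Slc16a1 stood at 76.4, 258 and 334 CPM in mutants, from 164 UMIs, and at 143, 171 and 429 CPM in controls, from 104 UMIs (log2 fold change 0.15 ± 0.31 SE, adjusted p = 0.911), with wider errors than those of the 3 genes before. Slc39a10, a zinc importer, was the transporter that fell, from 916, 1104 and 1438 CPM in controls to 571, 771 and 865 CPM in mutants without overlap (log2 fold change -0.64 ± 0.17 SE, adjusted p = 0.0448). Its call was lost when any of these libraries was left out: control 1, 2, 4, 5 or 6 or mutant 1, 2, 3, 4 or 5 (adjusted p of up to 0.272 over the alternatives). Slc39a10 was called in 7 of the 21 alternatives. With both regions summed, the glutamine transporter Slc38a3 (log2 fold change -0.94 ± 0.21 SE, adjusted p = 0.0128) and the thiamine transporter Slc19a3 (log2 fold change -0.94 ± 0.24 SE, adjusted p = 0.0343) also fell.

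**Figure D4:**
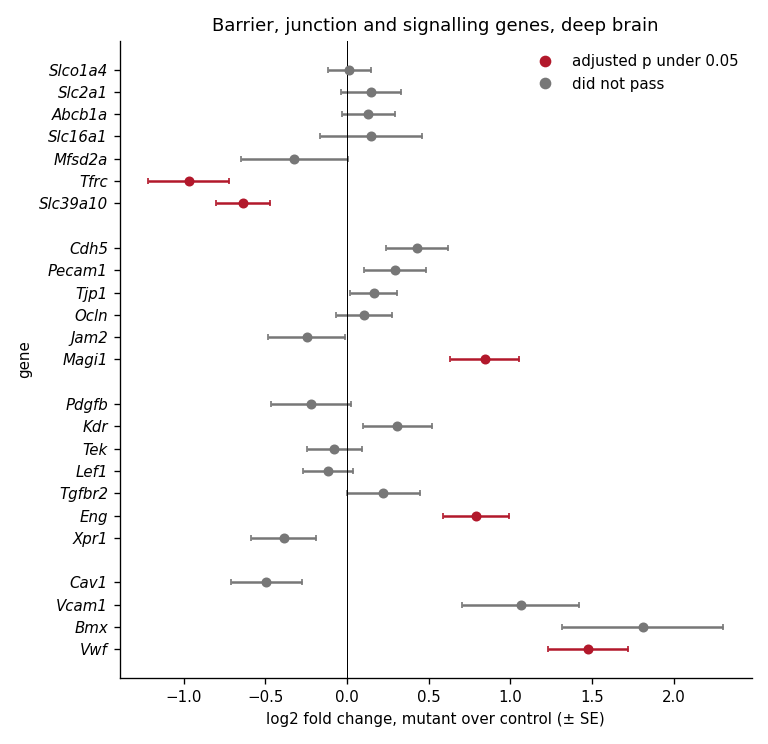
Log2 fold change of mutant over control (horizontal axis, ± SE) in deep brain endothelial nuclei for 24 transport, junction, signalling and other genes, red where the adjusted p was under 0.05. The transporters Slco1a4, Slc2a1 and Abcb1a lie next to 0, and Tfrc, Slc39a10, Magi1, Eng and Vwf are the genes in red.

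Transcytosis and iron genes gave 2 calls, in opposite directions, where 1.5% of all genes tested rose and 0.694% fell. Of 17 genes of caveolae and transcytosis 11 were tested, of which 1 rose and 1 fell, with a median log2 fold change of 0.00081. Ehd4, which serves endocytic recycling, stood at 101, 184 and 307 CPM in mutants, from 130 UMIs, and at 17.4, 75.2 and 143 CPM in controls, from 37 UMIs, and rose (log2 fold change 1.37 ± 0.34 SE, adjusted p = 0.0378). The Ehd4 call was lost without control 1, 2, 4, 5 or 6 or mutant 1, 2 or 3 (adjusted p of up to 0.0885 over the alternatives). Tfrc, the transferrin receptor of iron uptake and of receptor-mediated transcytosis, fell to 262, 320.4 and 451 CPM in mutants from 279, 749.7 and 920.2 CPM in controls (log2 fold change -0.97 ± 0.25 SE, adjusted p = 0.0433). The groups overlapped, since control 5 lay within the range of the mutants, and the call was lost without control 1, 3, 4 or 6 or mutant 1, 2, 4, 5 or 6 (adjusted p of up to 0.103 over the alternatives). Cav1, the coat protein of caveolae, stood at 181, 251 and 402 CPM in mutants, from 172 UMIs, and at 287, 347 and 521 CPM in controls, from 183 UMIs (log2 fold change -0.49 ± 0.22 SE, adjusted p = 0.318). Plvap, the diaphragm protein of fenestrated endothelium that healthy barrier vessels lack, gave 5 UMIs in mutants and 0 in controls. Over all deep brain control members, 0 of 504955 UMIs allows up to 5.94 CPM, and of 9 marker genes of fenestrated and lymphatic endothelium 1 was tested and did not pass. Summed, these 9 genes nevertheless stood at 505 to 785 CPM in mutants and at 284 to 450 CPM in controls of deep brain, without overlap, with Esm1 and Ccl21a at 0 in both groups, Lyve1 at 0 in mutants and Plvap and Mmrn1 at 0 in controls. Over all kept nuclei of deep brain the sum had medians of 176 CPM in mutants and 167 CPM in controls. In cortex the sums had medians of 767 CPM in mutants and 298 CPM in controls and overlapped between groups. When both regions were summed per mouse, 2 of the 9 genes were tested and 1 rose, Nrp2, which the venous list also holds. The part of fenestrated or lymphatic endothelium in the gene results was not tested. Of 10 genes of iron uptake and export 3 were tested, and 1 fell, Tfrc. Cp, the ferroxidase ceruloplasmin, which is outside these lists, stood at 409.8, 527 and 687 CPM in mutants, from 329 UMIs, and at 245, 272 and 472 CPM in controls, from 152 UMIs, and rose (log2 fold change 0.76 ± 0.20 SE, adjusted p = 0.049), with a call lost without control 1, 2, 4, 5 or 6 or mutant 1, 2, 3, 5 or 6 (adjusted p of up to 0.11 over the alternatives).

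Junction genes gave 1 call. Of 20 genes of tight and adherens junctions 16 were tested and 1 rose, against 1.5% of all genes tested, with a median log2 fold change of 0.099 against -0.0036. Magi1, a junction scaffold, stood at 336, 539.5 and 732 CPM in mutants, from 361 UMIs, and at 201, 299 and 383 CPM in controls, from 153 UMIs, and rose with 5 mutants above all controls (log2 fold change 0.84 ± 0.21 SE, adjusted p = 0.0411). That call was lost without control 1, 2, 3, 4 or 6 or mutant 2, 3, 4, 5 or 6 (adjusted p of up to 0.123 over the alternatives), and with both regions summed (log2 fold change 0.66 ± 0.21 SE, adjusted p = 0.103). Cdh5 stood at 351, 477 and 664 CPM in mutants, from 311 UMIs, and at 276, 337 and 437 CPM in controls, from 180 UMIs (log2 fold change 0.43 ± 0.19 SE, adjusted p = 0.318). Pecam1 stood at 729.6, 826 and 1256 CPM in mutants, from 589 UMIs, and at 569, 712 and 1002 CPM in controls, from 370 UMIs (log2 fold change 0.29 ± 0.19 SE, adjusted p = 0.536). Tjp1, the scaffold ZO-1, stood at 1589.9, 2046 and 2429 CPM in mutants and 1505, 1781 and 2071 CPM in controls (log2 fold change 0.16 ± 0.14 SE, adjusted p = 0.712), and occludin (Ocln) at 282, 367 and 392 CPM in mutants, from 239 UMIs, and at 261, 336 and 376 CPM in controls, from 166 UMIs (log2 fold change 0.10 ± 0.17 SE, adjusted p = 0.856). None of these 4 passed, and their groups overlapped. Of 11 tested genes of leukocyte adhesion none passed; Vcam1 stood at 107, 416 and 723 CPM in mutants, from 284 UMIs, and at 92.0, 177 and 279 CPM in controls, from 101 UMIs (log2 fold change 1.06 ± 0.36 SE, adjusted p = 0.133) and Icam1 was too low to test (28 and 16 UMIs).

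Of the signalling axes, the TGF-beta and BMP genes gave 1 call and the others none in deep brain. Eng, the co-receptor endoglin and the only call among 22 tested genes of endothelial identity, stood at 1106, 1314 and 1772 CPM in mutants, from 868 UMIs, and at 453, 689 and 1202 CPM in controls, from 372 UMIs, and rose with 4 mutants above all controls (log2 fold change 0.79 ± 0.20 SE, adjusted p = 0.0438). The Eng call was lost without control 1, 2, 4 or 5 or mutant 1, 2, 3, 4, 5 or 6 (adjusted p of up to 0.113 over the alternatives). All 10 tested genes of that axis were higher, among them Tgfbr2 (log2 fold change 0.22 ± 0.22 SE, adjusted p = 0.749). Their median log2 fold change was 0.34, against -0.0036 over all genes tested, of which 1.5% rose. As sparse members can enter the test through the group where they are high, such one-sided counts are no separate support, here or below. The VEGF and angiopoietin receptors Kdr (log2 fold change 0.31 ± 0.21 SE, adjusted p = 0.583) and Tek (log2 fold change -0.08 ± 0.17 SE, adjusted p = 0.912) did not pass. Angpt2, the Tek antagonist of vessel destabilisation, had too few counts to be tested, at 83.2, 164 and 282 CPM in mutants (104 UMIs) and 0, 6.61 and 60.9 CPM in controls (9 UMIs), without overlap. With both regions summed, Angpt2 and Bmp6 entered the test through their counts in mutants and were called, which is no independent evidence, since their levels had been seen to differ. In deep brain, none of 6 tested angiogenic genes, 7 of the VEGF and angiopoietin axis, 14 of Wnt signalling or 4 of the Notch axis passed; Lef1, a Wnt effector that maintains the barrier programme, stood at 939, 1019.6 and 1253 CPM in mutants, from 688 UMIs, and at 873, 1139 and 1323 CPM in controls, from 573 UMIs (log2 fold change -0.11 ± 0.15 SE, adjusted p = 0.815). Of 12 tested genes of the basement membrane, the matrix that endothelial cells share with pericytes, none passed, 11 were higher and the median was 0.32, against -0.0036 over all genes; the laminin gene Lama4 passed with both regions summed (log2 fold change 0.77 ± 0.20 SE, adjusted p = 0.0376).

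The genes of familial brain calcification gave no call, and neither did the 2 PDGF ligands tested, where 2.2% of all genes tested were called. Of 13 fixed genes 3 were tested, Pdgfb, Jam2 and Xpr1, and all were lower without passing. Jam2, a junctional adhesion molecule, stood at 201, 296 and 428 CPM in mutants, from 216 UMIs, and at 215, 391 and 491 CPM in controls, from 186 UMIs (log2 fold change -0.25 ± 0.24 SE, adjusted p = 0.74). The phosphate exporter Xpr1 stood at 143, 239 and 244 CPM in mutants, from 137 UMIs, and at 215, 274 and 305 CPM in controls, from 137 UMIs (log2 fold change -0.39 ± 0.20 SE, adjusted p = 0.415). The phosphate importer Slc20a2 gave 38 UMIs in each group and was not tested. Neither 4 genes of hypoxia and glycolysis nor 6 immediate early and stress genes that were tested gave a call.

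Adgrl3, an adhesion receptor of the latrophilin family, stood at 865, 1260.0 and 1925 CPM in mutants, from 875 UMIs, and at 291, 665 and 775 CPM in controls, from 319 UMIs, without overlap (log2 fold change 1.05 ± 0.23 SE, adjusted p = 0.0142). The membrane repair gene Myof stood at 337, 408 and 563 CPM in mutants, from 261 UMIs, and at 39.7, 168 and 229 CPM in controls, from 81 UMIs (log2 fold change 1.36 ± 0.28 SE, adjusted p = 0.00867). Limch1, which activates non-muscle myosin, stood at 759, 1023 and 1283 CPM in mutants, from 630 UMIs, and at 217, 563 and 635 CPM in controls, from 262 UMIs (log2 fold change 0.96 ± 0.22 SE, adjusted p = 0.0224). The Adgrl3 call was lost without mutant 2 (adjusted p of up to 0.054 over the alternatives), and that of Limch1 without mutant 1, 4 or 6 (adjusted p of up to 0.0561 over the alternatives). Tm4sf1, a membrane protein of endothelial filopodia, was at 217, 458 and 926 CPM in mutants, from 302 UMIs, and at 134, 219 and 238 CPM in controls, from 105 UMIs (log2 fold change 1.21 ± 0.27 SE, adjusted p = 0.0181) and lost its call without control 4 or mutant 4 (adjusted p of up to 0.0582 over the alternatives). Ddah1, which breaks down an inhibitor of nitric oxide synthase (log2 fold change 0.94 ± 0.24 SE, adjusted p = 0.0411), Apod, a lipocalin (log2 fold change 0.90 ± 0.23 SE, adjusted p = 0.0411), Fmo2, a monooxygenase (log2 fold change 1.27 ± 0.33 SE, adjusted p = 0.0448), Ctla2a, a protease inhibitor (log2 fold change 1.01 ± 0.27 SE, adjusted p = 0.049), and Synm, an intermediate filament protein (log2 fold change 0.96 ± 0.25 SE, adjusted p = 0.049), rose with overlapping groups. Each of those 5 calls was lost without at least 8 of the 12 libraries left out in turn, the highest adjusted p over the alternatives being 0.136.

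Among the genes that fell, Lmntd1 (chr6:145365134-145614319, minus strand), a gene with a lamin tail domain, changed most. It stood at 15.3, 42.7 and 71.3 CPM in mutants, from 31 UMIs, and at 215, 316 and 399 CPM in controls, from 156 UMIs, each mutant below each control, and was 6.53-fold lower in mutants (log2 fold change -2.71 ± 0.28 SE, adjusted p = 5.09e-06). Thinned, it was seen in 5.56% of mutant and 24.5% of control nuclei (10.1% and 34.6% before thinning), against 0.450% and 0.444% of the oligodendrocyte nuclei. Kitl (chr10:100015630-100100416, plus strand), the ligand of the receptor Kit, stood at 428, 620.1 and 703 CPM in mutants, from 403 UMIs, and at 813, 1053 and 1116 CPM in controls, from 521 UMIs, and fell without overlap (log2 fold change -0.78 ± 0.16 SE, adjusted p = 0.00991). Its call held in 20 of 21 alternatives and was lost with no filter on low counts (adjusted p = 0.0707, edgeR). Slc1a1, a glutamate and aspartate transporter, stood at 90.4, 170.0 and 202 CPM in mutants, from 93 UMIs, and at 172, 337 and 476 CPM in controls, from 170 UMIs (log2 fold change -1.21 ± 0.26 SE, adjusted p = 0.0134), with its call lost without mutant 2 or 4 (adjusted p of up to 0.0581 over the alternatives). The phospholipid flippase Atp8a1 stood at 314, 349.7 and 571 CPM in mutants, from 246 UMIs, and at 529, 640.5 and 687 CPM in controls, from 319 UMIs (log2 fold change -0.73 ± 0.18 SE, adjusted p = 0.0411) and Tmtc2, a mannosyltransferase of cadherins, at 626, 922 and 1127 CPM in mutants, from 595 UMIs, and at 895, 1711 and 2527 CPM in controls, from 804 UMIs (log2 fold change -0.90 ± 0.22 SE, adjusted p = 0.031). Pitpnc1, a phosphatidylinositol transfer protein, stood at 231, 291 and 371 CPM in mutants, from 184 UMIs, and at 322, 461 and 661 CPM in controls, from 255 UMIs (log2 fold change -0.80 ± 0.21 SE, adjusted p = 0.049). These 3 overlapped between groups. Their calls were lost without control 1, 2, 3, 4 or 5 or mutant 1, 2, 3, 4 or 6 (adjusted p of up to 0.187 over the alternatives) for Atp8a1, control 4, 5 or 6 or mutant 1, 2, 4 or 5 (adjusted p of up to 0.0923 over the alternatives) for Tmtc2 and control 2, 3, 4, 5 or 6 or mutant 1, 2, 3, 4, 5 or 6 (adjusted p of up to 0.132 over the alternatives) for Pitpnc1.

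Rgs5 and Snap25, which fell as well, are better known from other cell types. Among the marker lists of other cells, 3 mural, 2 astrocyte, 7 neuronal, 3 oligodendrocyte and 1 choroid plexus gene had counts enough to be tested, and Rgs5 and Snap25 were among the calls. No fibroblast, microglial, precursor or T cell marker had enough counts to be tested. Rgs5, a G-protein regulator typical of pericytes, stood at 27.1, 225 and 381 CPM in mutants, from 141 UMIs, and at 610.3, 775 and 1626 CPM in controls, from 425 UMIs, without overlap (log2 fold change -2.09 ± 0.41 SE, adjusted p = 0.00681). It also fell in all other kept nuclei (-1.53 ± 0.27 SE, adjusted p = 0.0186), which held 18 mural nuclei in mutants and 81 in controls, and the difference between the 2 changes did not pass (difference of log2 fold changes -0.69 ± 0.49 SE, adjusted p = 0.642). All 12 mural markers together summed to 2113 to 2887 CPM in mutant and 2559 to 3679 CPM in control endothelial nuclei, from 1575 and 1485 UMIs, Higd1b being at 0 in controls. Abcc9 was present in 5 of 43 thinned control nuclei with Rgs5 and in 1 of 157 without. In thinned mutant nuclei it was present in 1 of 18 with Rgs5 and in 2 of 180 without. Snap25, a synaptic protein of neurons, stood at 63.3, 86.1 and 136 CPM in mutants, from 60 UMIs, and at 159, 239 and 301 CPM in controls, from 120 UMIs (log2 fold change -1.40 ± 0.24 SE, adjusted p = 0.00245). Syt1 was near the threshold (log2 fold change -1.10 ± 0.30 SE, adjusted p = 0.0504). Thinned, Snap25 was seen in 9.09% of mutant and 19.5% of control nuclei (19.7% and 35.1% before thinning), against 11.8% and 14.1% of the oligodendrocyte nuclei. These shares pool the nuclei of all mice of a group, and their differences were not tested. The 12 neuronal markers summed to 785 to 4188 CPM (median 1403) in mutant and 1503 to 5434 CPM (median 2631) in control endothelial nuclei. The 9 astrocyte markers summed to 503 to 724 CPM in mutants and 537 to 2141 in controls. The part of mural, neuronal and astrocyte RNA in these results was not tested. Ttr of the choroid plexus stood apart in control 1, where 1 nucleus of 20 held 408 of 424 UMIs.

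A direct test asked whether the genotype difference in endothelial nuclei departed from that in all other nuclei of the same libraries. It called 21 of 1728 genes (1.22%), with 14 relatively higher (0.81%) and 7 relatively lower (0.405%) in mutant endothelial nuclei. Among the 10 with the smallest p were Lmntd1 (difference of log2 fold changes -2.90 ± 0.33 SE, adjusted p = 1.88e-05), Crim1 (difference of log2 fold changes 1.38 ± 0.19 SE, adjusted p = 0.000215), Ccn2 (difference of log2 fold changes 3.86 ± 0.54 SE, adjusted p = 0.000215), Lpar6, Nckap5, Snap25, Cd34 and Pitpnc1. For Lpar6 the values were a difference of log2 fold changes 2.01 ± 0.34 SE, adjusted p = 0.00223, and for Nckap5 a difference of log2 fold changes 1.60 ± 0.31 SE, adjusted p = 0.0134. Outside endothelial nuclei neither Ccn2 (-0.28 ± 0.19 SE, adjusted p = 0.588) nor Crim1 (0.07 ± 0.07 SE, adjusted p = 0.73) passed. For Edn1 the test passed as well (difference of log2 fold changes 2.00 ± 0.47 SE, adjusted p = 0.0366), and for Vwf it did not (difference of log2 fold changes 0.87 ± 0.32 SE, adjusted p = 0.221). The other nuclei included those that passed the endothelial limits but were removed by other markers, 229 in deep brain and 82 in cortex. Their part in the values of other nuclei, such as those of Edn1 and Vwf, was not tested. Cd34, a surface sialomucin that fell in other nuclei (-1.39 ± 0.23 SE, adjusted p = 0.0137), did not pass in endothelial nuclei (log2 fold change -0.26 ± 0.22 SE, adjusted p = 0.694), and its call comes from the difference between them (difference of log2 fold changes 1.05 ± 0.22 SE, adjusted p = 0.0189).

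**Figure D5:**
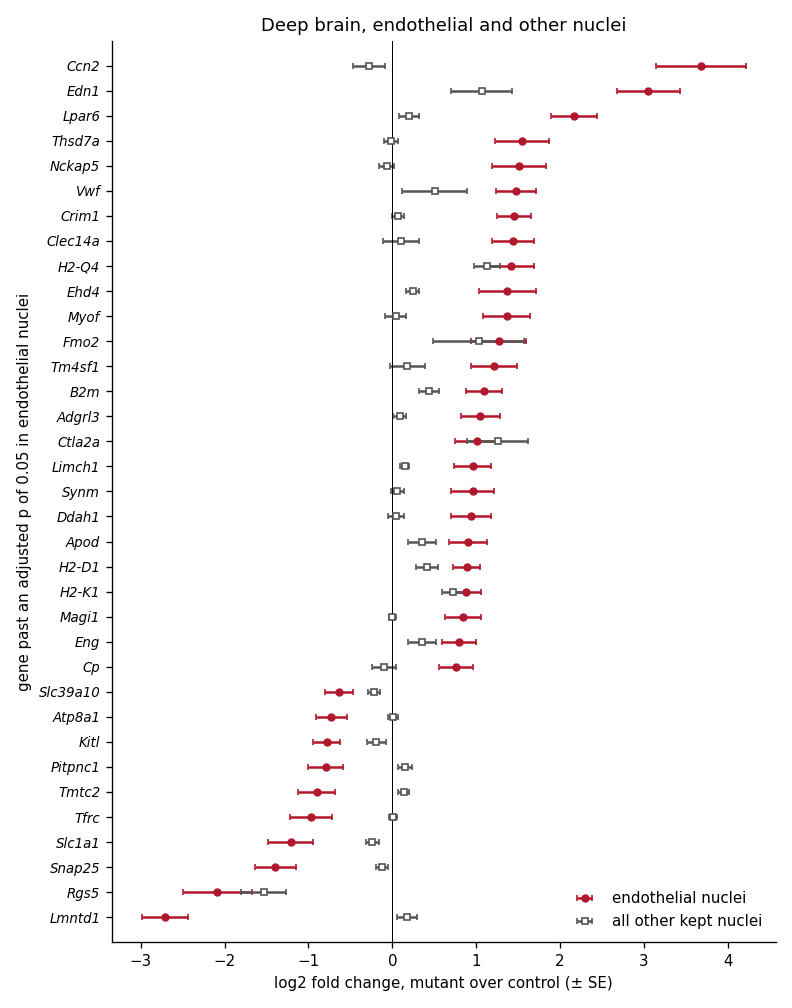
Log2 fold change of mutant over control in deep brain (horizontal axis, ± SE) for 35 of the 38 genes called in endothelial nuclei (red circles), beside the same gene in all other kept nuclei (open squares). Most squares lie near 0, whereas Rgs5, H2-Q4, H2-K1, Fmo2, Ctla2a and Edn1 have squares well away from 0 on the side of the circle. The other kept nuclei include 229 that passed the endothelial limits but were removed by other markers.

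In cortex the endothelial nuclei were few, and 164 genes had counts enough to be tested. The fit used 11 libraries with 1 to 24 endothelial nuclei each and left out that of mutant 3, which had 0. Of the 164 genes, 9 were called (5.49%): 7 rose (4.27%), among them Vwf, Prkg1, Crim1, H2-K1, Auts2 and Sptan1, and St8sia4 and Slc39a10 fell (1.22%). Vwf stood at 1099.7, 2668, 788, 904 and 2172 CPM in mutants 1, 2, 4, 5 and 6, from 322 UMIs, and at 0, 298 and 501 CPM in controls, from 43 UMIs (log2 fold change 2.34 ± 0.53 SE, adjusted p = 0.0203). All mutants exceeded all controls. Over the 164 genes the groups did not overlap for 7 that were higher (4.27%) and 1 that was lower (0.61%) in mutants. Crim1 stood at 793, 631, 919, 1151 and 1074 CPM in mutants 1, 2, 4, 5 and 6, from 193 UMIs, and at 125, 301 and 463 CPM in controls, from 36 UMIs (log2 fold change 1.74 ± 0.38 SE, adjusted p = 0.0203). H2-K1 stood at 1611, 922, 2231, 1356 and 1673 CPM in mutants 1, 2, 4, 5 and 6, from 299 UMIs, and at 303, 519 and 694 CPM in controls, from 65 UMIs (log2 fold change 1.51 ± 0.35 SE, adjusted p = 0.0203). Prkg1, the cGMP-dependent kinase of nitric oxide signalling (log2 fold change 1.86 ± 0.46 SE, adjusted p = 0.0243), Auts2 (log2 fold change 1.48 ± 0.42 SE, adjusted p = 0.0435) and the spectrin gene Sptan1 (log2 fold change 1.26 ± 0.33 SE, adjusted p = 0.034) did not pass in deep brain. The sialyltransferase St8sia4 fell (log2 fold change -1.54 ± 0.35 SE, adjusted p = 0.0203), as did Slc39a10 (log2 fold change -1.47 ± 0.41 SE, adjusted p = 0.0435). Of the 9 genes 5 were also called in deep brain (among them Crim1, H2-K1, Slc39a10 and Vwf), which is 55.6% of the cortical and 13.2% of the deep brain calls. Only 11 of the 38 deep brain calls had counts enough to be tested in cortex. The 2 regions share no library but come from the same mice. Crim1 was also the 1 gene of 164 (0.61%) whose change differed from that in other cortical nuclei (difference of log2 fold changes 1.77 ± 0.36 SE, adjusted p = 0.0322), a call that was lost under the stricter rule of 10 UMIs from 4 genes. The cortical UMIs were concentrated in few nuclei of mutants: 1 nucleus gave 33.9% and the 5 richest gave 68.6% of those of Vwf, with 34.1% and 59.2% for H2-K1 and 10.4% and 32.6% for Crim1. None of the 9 calls was left with mice blocked by replicate number or by matched age. The calls also rest on few libraries: 0 were left without control 2 or without mutant 6, 2 without control 5, 4 without control 4, and 0 when only libraries with at least 5 endothelial nuclei were used, a fit that called 5 other genes of 780.

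Several genes called or described in deep brain were too sparse for the cortical test. Ccn2 stood at 2532, 534, 7219, 1459 and 1336 CPM in mutants 1, 2, 4, 5 and 6, from 343 UMIs, and at 0, 0 and 84.0 CPM in controls, from 7 UMIs. Bmp6 stood at 665, 291, 263, 1212 and 986 CPM in mutants 1, 2, 4, 5 and 6, from 172 UMIs, and at 0, 0 and 14.0 CPM in controls, from 1 UMI. All 5 mutants lay above all controls for both, although 1 UMI is a large step in a control library of 4322 UMIs. Among the 164 genes tested in cortex, 4.27% were higher and 0.61% lower without overlap. Those shares do not cover the sparse genes of this paragraph, which were looked up for their deep brain values. Edn1 stood at 1867, 679, 131, 1562 and 1585 CPM in mutants 1, 2, 4, 5 and 6, from 291 UMIs, and at 0, 80.4 and 438 CPM in controls, from 25 UMIs. Angpt2 stood at 102, 243, 656, 123 and 249.7 CPM in mutants 1, 2, 4, 5 and 6, from 40 UMIs, and at 0, 0 and 71.5 CPM in controls, from 5 UMIs. The groups overlapped for Edn1 and did not for Angpt2. Lmntd1 stood at 0, 0, 0, 123 and 12.5 CPM in mutants 1, 2, 4, 5 and 6, from 7 UMIs, and at 125, 292 and 463 CPM in controls, from 29 UMIs, every mutant below every control.

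Deep brain and cortex were compared within mice, with the mouse as a block. In controls no gene of 2100 was called by edgeR (0%; 87 at an unadjusted p under 0.05; DESeq2 called 0, with 97). The control cortical libraries held 1 to 24 endothelial nuclei, with a median of 4.5. The lack of calls therefore does not show that control endothelial nuclei were alike in both regions. The median log2 fold change of deep brain over cortex was 0.16 over all genes, and 0.03 with RLE in place of TMM factors, so that differences are read against that shift. In mutants 5 genes were called (0.238%), all lower in deep brain: Ccn2 (log2 fold change -1.68 ± 0.39 SE, adjusted p = 0.0437), Dpp10 (log2 fold change -2.29 ± 0.43 SE, adjusted p = 0.0089), Syt1 (log2 fold change -2.02 ± 0.42 SE, adjusted p = 0.0219), Opcml (log2 fold change -2.70 ± 0.60 SE, adjusted p = 0.0351) and Arpp21 (log2 fold change -2.92 ± 0.68 SE, adjusted p = 0.0437). The latter 4 are neuronal genes, and the 12 neuronal markers summed to 785 to 4188 CPM in deep brain and 1223 to 8663 CPM in cortical endothelial nuclei of mutants; their part in the result was not tested. In all other nuclei of mutants the same contrast was -2.06 for Ccn2, -1.63 for Dpp10, -0.76 for Syt1, -0.63 for Opcml and -1.16 for Arpp21. Of the 152 Opcml UMIs in mutant cortical endothelial nuclei, 1 nucleus held 116 (76.3%). The richest nucleus gave 19.0% of those UMIs for Ccn2, 16.3% for Dpp10, 14.8% for Arpp21 and 9.35% for Syt1. No call was left when only mice with at least 5 cortical endothelial nuclei were used, or without mutant 1 or mutant 4, and 1 was left without mutant 6. The interaction of region and genotype called 0 of 2100 genes (72 at an unadjusted p under 0.05; DESeq2 called 0, with 73); for Ccn2 it gave adjusted p = 0.998. This does not show that the genotype differences were alike in both regions.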

How the data were processed

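Single nuclei were profiled with the 10x 5′ gene expression kit (V2, dual index) from frozen, macro-dissected brain regions of perfused mice. Per the labels and the study's methods, the authors demultiplexed reads with bcl2fastq 2.20.0.422, dropped reads of quality below 30 and counted them with Cell Ranger 5.0.1 on mm10, introns included. The deposited files hold raw UMI counts per gene and barcode, with replicates kept apart. Neither ambient RNA correction nor a doublet caller is given in the sources used here. Coordinates come from GENCODE on GRCm38, in which 32235 of 32288 listed genes were found by identifier, and promoter sequences from RefSeq.

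Members and gene lists were chosen with earlier results of these data known. Counts of the members were summed per library, since mice and not nuclei are replicates, and tested with edgeR 4.0.16 (TMM, filterByExpr, quasi-likelihood, Benjamini-Hochberg, threshold 0.05) in R 4.3.3. The filter keeps genes with enough counts in as many libraries as the smaller group holds, so a gene can pass through the group where it is high. The 14 genes the rule used stayed in the fits and were left out of counts of calls. DESeq2 1.42.0 was an alternative. Regions were fitted apart, except for the comparison of regions, which had the mouse as a block, and for the comparison with other nuclei, which had the library as a block. Shares and depths were compared by exact permutation tests, two-sided, with scipy 1.17.1. Intervals are exact Clopper-Pearson 95% intervals and, like the limits from 3 counts, cover counting error only. Classes of other nuclei were set by the same form of rule (6 UMIs from 3 of 5 genes). To compare shares of nuclei with a UMI, nuclei were thinned to 1000 UMIs. Doublets were handled by the marker limits of the rule; Scrublet, run as a check with scanpy 1.11.5, marked 4 members.

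Named were Pdgfb, the 10 largest changes per direction past the threshold, the members of 30 lists past it, and a fixed set of barrier and signalling genes; for tests of interaction and class the 10 smallest p. Alternatives were RLE factors, no filter, blocks by replicate number or matched age, a stricter rule (10 UMIs from 4 genes), a mitochondrial limit of 5%, removal of Scrublet doublets, each library left out and regions summed per mouse. The limit of 5 nuclei per cortical library was chosen after seeing the data. Scripts were tested on simulated data. Some genes counted among the calls are not reported here by name.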

Additional observations from a re-analysis of the deposited data

Results flagged for a closer look

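In 141 groups of 5 or 6 libraries, 15 single libraries stood apart from the rest of their group by Dixon's criterion, which chance alone meets in about 1 of 20 groups. All 15 were in deep brain.

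In mutants, Clec14a reached 584 CPM in mutant 6, with the next library at 316, and H2-D1 reached 1498 CPM in mutant 5 with the next at 1117. Kitl was low in mutant 5, at 428 CPM against 604 in the nearest library. Slc38a5 stood at 362 CPM in mutant 6 against 148, Dpp10 at 285 CPM in mutant 3 against 153, and Plvap at 45.8 CPM in mutant 1, where 3 UMIs make the value, against 5.93.

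In controls, control 3 was high in Bmx (229 CPM against 75.2 in the next library) and in Nlrc5 (100.2 CPM, 7 UMIs, against 33.4). Control 5 was high in Opcml (400.4 CPM against 167) and Angpt2 (60.9 CPM, 7 UMIs, against 16.7), and low in Mfsd2a (60.9 CPM against 225) and Slco1a4 (3743 CPM against 4657). Control 1 was high in Rgs5 (1626 CPM against 819) and in Slc38a5 (230.1 CPM against 115). Efnb2 reached 304 CPM in control 6 against 95.8. Without these libraries the calls for Clec14a, H2-D1, Kitl and Rgs5 held.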

How the results depend on the processing

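The number of deep brain calls rests on the filter and on how much is summed: 180 of 16755 genes were called with no filter on low counts, 88 with both regions summed per mouse, and 23 to 46 with 1 library left out in turn (25 without control 4, 23 without mutant 2 and 24 without mutant 4). Of the 38 calls, 37 were kept with DESeq2, 38 with RLE factors and 29 with the age-matched block. The cortical count is weak: 18 of 14400 without a filter, 0 with the age-matched block, 5 of 780 with at least 5 nuclei per library, 88 with both regions summed, and 0 to 10 with 1 library left out. The cortical comparison with other nuclei gave 0 calls under the stricter rule. For regions, controls gave 2 calls without a filter and 0 to 1 with 1 library left out, and mutants gave 8 with RLE factors, 13 under the stricter rule, 0 with at least 5 cortical nuclei per mouse and 0 to 9 with 1 library left out (0 without mutant 1 or 4, 1 without mutant 6, 2 without control 3, 3 without control 6 or mutant 3, 8 without control 1, 9 without control 2 or 5). The difference in endothelial share in deep brain ran from -0.0446 to 0.0165 percentage points and changed sign without mutant 6 (0.0165) or control 2 (0.0155). The difference in UMIs per nucleus in deep brain was 547 UMIs as a mean over nuclei, 339 under the stricter rule (exact permutation test, p = 0.00216) and 181 to 318 with 1 library left out, of which 318 without mutant 5 passed the threshold (exact permutation test, p = 0.00649); in cortex it was 1376 under the stricter rule, 911 as a mean over nuclei and -200.6 to 760.0 with 1 library left out, changing sign without mutant 2 (-200.6). The cause of these changes was not tested, beyond the smaller number of libraries or the other number of genes tested. Over the single genes and sites named, 1238 alternative values kept direction and side of the threshold, 160 kept direction but no longer passed, 29 came to pass, and 0 reversed.

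Mutants and controls numbered 1 to 4 were of the same age to the day, and those numbered 5 and 6 were matched crosswise, but no label names a shared litter or batch. Same-numbered libraries had correlations of deviations of -0.093 to 0.218 in deep brain and of -0.131 to 0.443 in cortex, so that not every pair deviated together. With the replicate block 32 of the 38 deep brain calls remained, 0 of the cortical, and the comparison with other nuclei gave 29 calls in deep brain and 4 in cortex. Removal of Scrublet doublets was not run for the cortical share, since Scrublet marked under 0.5% of nuclei in 5 of 12 cortical libraries and up to 46.8% in another. With 16 to 56 endothelial nuclei per deep brain library, a gene that did not pass may still have changed, and genes of low counts, Angpt2, Bmp6, Plvap, Icam1, Efnb2 and Nlrc5 among them, could not be tested in that region.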
